A study of Mus musculus with 19 samples.

Results

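LPS-treated and vehicle-treated microglia of wild-type (WT) mice were compared over all genes in 9 of the 19 libraries of the study, 5 from cells given lipopolysaccharide (LPS, a component of the outer membrane of Gram-negative bacteria) and 4 from cells given vehicle. Microglia are the resident macrophages of the brain. The LPS group (WT LPS libraries 1 to 5) held C57BL/6 wild-type cells that received 100 ng/mL LPS for 6 h and then fresh medium for 16 h. The vehicle group (WT vehicle libraries 1 to 4) held C57BL/6 wild-type cells that received medium alone on the same schedule. All cells of both groups came from the cortex of mice aged 10 to 11 months and had spent 4 weeks in culture with 10% fetal bovine serum and the growth factor M-CSF (macrophage colony-stimulating factor) at 5 ng/mL, so the comparison concerns cultured adult microglia after a recovery period, not cells in the brain or at the end of the exposure. The other 10 libraries came from mice with a mutant human APP transgene (line J20, driven by the PDGF promoter) under both treatments, and entered the fit as further estimates of the spread. Whether libraries of a group stem from separate mice or cultures is not in the labels. The p-values therefore reflect only how much these libraries vary, part of which may be technical.

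As background, LPS is bound by Cd14 and the Tlr4 and Ly96 (MD-2) complex at the macrophage surface. One arm of the signal runs through Myd88 to NF-kB, which is held in the cytoplasm by IkB proteins such as Nfkbia and drives cytokine, chemokine and feedback inhibitor genes. The other arm, through Ticam1 and Irf3, drives interferon β and with it the interferon-stimulated genes, and prolonged exposure leaves macrophages in an altered state in which feedback inhibitors persist.

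To show the DNA in front of genes that carry the comparison, the 250 bases before the annotated start were read from RefSeq (GRCm38.p6) for the genes called below, and searched on both strands for the 10-base NF-kB consensus. Such a match was present in 7.25% of all 32851 windows and in a window of 10.5% of the 10848 tested genes that had one. Of the 17 genes called higher, 14 had a window and 4 held a match (Cxcl1, Ier3, Il6 and Nfkbia), and of the 4 called lower, 3 had a window and 0 held a match. These 4 windows and that of Il1b, which held no match, are printed 5′ to 3′ with the matched bases in capitals; in Cxcl1 a pair of matches overlaps.
Cxcl1 (chr5:90890995-90891244, plus strand): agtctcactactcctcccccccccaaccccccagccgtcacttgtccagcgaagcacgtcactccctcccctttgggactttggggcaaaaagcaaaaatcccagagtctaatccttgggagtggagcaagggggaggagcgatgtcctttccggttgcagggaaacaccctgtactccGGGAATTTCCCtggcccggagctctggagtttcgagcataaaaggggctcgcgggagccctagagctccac
Il6 (chr5:30012864-30013113, plus strand): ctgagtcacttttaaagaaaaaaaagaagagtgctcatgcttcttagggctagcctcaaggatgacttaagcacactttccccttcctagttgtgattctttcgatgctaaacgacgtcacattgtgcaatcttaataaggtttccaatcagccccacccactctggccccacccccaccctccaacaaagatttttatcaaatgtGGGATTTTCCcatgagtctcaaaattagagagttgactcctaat
Nfkbia (chr12:55492648-55492897, minus strand): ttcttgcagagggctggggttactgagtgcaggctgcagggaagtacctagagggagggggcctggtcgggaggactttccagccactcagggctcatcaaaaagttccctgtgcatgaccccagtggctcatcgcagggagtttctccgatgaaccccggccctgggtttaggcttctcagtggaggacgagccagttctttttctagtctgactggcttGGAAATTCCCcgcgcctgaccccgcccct
Ier3 (chr17:35821463-35821712, plus strand): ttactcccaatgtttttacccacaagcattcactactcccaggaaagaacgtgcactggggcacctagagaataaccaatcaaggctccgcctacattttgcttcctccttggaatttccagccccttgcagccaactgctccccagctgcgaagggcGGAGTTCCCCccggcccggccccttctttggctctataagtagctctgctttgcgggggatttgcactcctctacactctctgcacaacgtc
Il1b (chr2:129371140-129371389, minus strand): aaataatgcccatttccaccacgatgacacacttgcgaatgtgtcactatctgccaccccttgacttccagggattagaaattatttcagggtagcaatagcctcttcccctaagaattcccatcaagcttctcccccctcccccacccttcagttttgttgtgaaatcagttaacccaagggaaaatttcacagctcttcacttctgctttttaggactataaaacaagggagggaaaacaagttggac
The matches began 71 and 70 bases before the start of Cxcl1, 44 before Il6, 29 before Nfkbia and 92 before Ier3. A match is a string of letters and not a measured binding site, and the absence of one says only that these letters are not in this window.

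The WT libraries held 15270080 to 25610461 counts with LPS and 17712123 to 31248988 with vehicle, and each of them detected 12238 to 14317 of the 16941 genes. A gene at 0 in a library is read against a floor of 3 counts, which covers counting error only. All levels below are CPM, a gene's counts relative to the total of its library on a fixed scale after TMM normalization, and the floor lies between 0.096 and 0.196 CPM depending on the library. The 16 macrophage and microglia identity markers summed to 21995, 24611, 19967, 19195 and 7405 CPM in LPS libraries 1 to 5 and to 22804, 21871, 21937 and 8894 CPM in vehicle libraries 1 to 4. LPS library 5 and vehicle library 4, which carry library numbers 58 and 57, thus stood far below the other 7 in macrophage transcripts, 1 in each group. Among microglial genes, P2ry12 was at 0.797 to 15.5 CPM with LPS and 0 to 28.6 CPM with vehicle and Tmem119 at 4.47 to 8.97 and 0 to 14.3 CPM. These defining markers of microglia in the brain were thus low, and P2ry12 was at 0 in vehicle library 4 and Tmem119 at 0 in vehicle library 3. Csf1r, Tyrobp and C1qa had counts in all 9 libraries.

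Transcripts of other cells were measured as well. Lrrc17, the most abundant transcript of the data, took 3.02% to 4.82% of the counts of a WT library. Without it, the 20 other pericyte, smooth muscle and fibroblast markers summed to 3310, 2705, 6015, 3324 and 5571 CPM with LPS and 3047, 6202, 2881 and 5051 CPM with vehicle. The 11 border-associated macrophage markers summed to 1234 to 6773 CPM with LPS and 1826 to 6325 CPM with vehicle. The sums were 152 to 319 CPM with LPS and 67.3 to 181 CPM with vehicle for 9 monocyte and neutrophil markers, 323 to 676 CPM with LPS and 514 to 866 CPM with vehicle for 14 endothelial markers, 64.3 to 124 CPM with LPS and 77.05 to 147 CPM with vehicle for 12 astrocyte markers, 37.3 to 129 CPM with LPS and 28.1 to 176 CPM with vehicle for 9 oligodendrocyte markers, 82.8 to 145 CPM with LPS and 82.3 to 137 CPM with vehicle for 12 neuron markers and 0.0646 to 6.28 CPM with LPS and 0.832 to 4.67 CPM with vehicle for 6 lymphocyte markers. The markers at 0 in all 9 libraries were Ltf, Ms4a1, Gjb6 and Olig2. In each of these sums the ranges of the groups overlapped. Because these are bulk libraries, fewer cells of a type and less RNA per cell cannot be told apart.

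**Figure D1:**
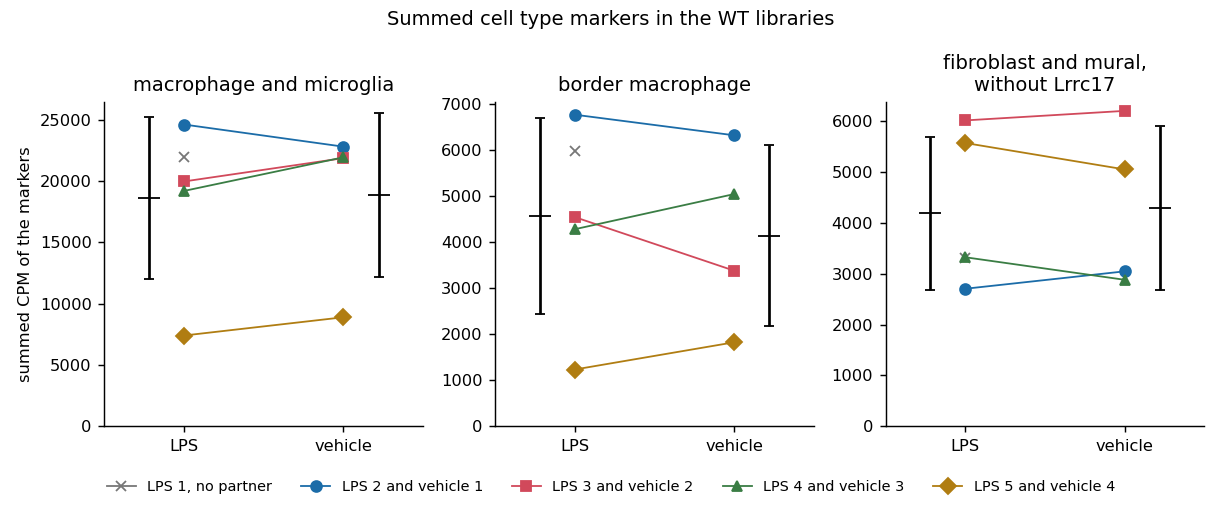
Summed CPM (vertical axes) of 16 macrophage and microglia markers, 11 border-associated macrophage markers and 20 fibroblast and mural markers without Lrrc17 in WT LPS (left, n = 5) and WT vehicle (right, n = 4) libraries. Lines join libraries with consecutive library numbers, and bars give the mean and SD of each group; the macrophage sum of LPS library 5 (7405 CPM) and vehicle library 4 (8894 CPM) lies below that of the other 7 libraries.

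The comparison asked how WT microglia differ from vehicle-treated cells 16 h after LPS was removed. Within pairs of libraries with consecutive numbers 17 genes rose, among them the cytokines Il1b, Il6 and Tnf, the chemokine Cxcl1, the arginine transporter Slc7a2 and the prostaglandin enzymes Ptgs2 and Ptges. The mannose receptor Mrc1, the growth factor Igf1, the lysosomal protease Ctsb and Ccdc152 fell. Without the pairs, the test called 0 genes.

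In the unpaired fit of 1 coefficient per group, 0 of 14113 genes (0.0%) passed edgeR's quasi-likelihood test, where the smallest adjusted p was 1. At an unadjusted p under 0.05 there were 350 genes higher with LPS (2.48%) and 166 lower (1.18%), while the Wald test of DESeq2 called 72 genes (47 higher, 25 lower). These 516 genes under 0.05 in edgeR are fewer than the 1 in 20 that this cut-off gives when no gene changes. The libraries varied widely, with a common dispersion of 1.05 and with 3048 genes that ranged from at most 3 counts in 1 WT library to at least 100 in another. For 102 genes every LPS library lay above every vehicle library (0.723%), and for 82 every LPS library lay below (0.581%).

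The numbers printed on the libraries run in neighbouring pairs within WT, vehicle 1 with LPS 2 (9 and 10), vehicle 2 with LPS 3 (21 and 22), vehicle 3 with LPS 4 (41 and 42) and vehicle 4 with LPS 5 (57 and 58), and LPS library 1 has no partner. The sources used here differ on the number of LPS library 1, and under neither number does it neighbour a WT vehicle library. The labels do not say what the number marks. Deviations from the group means, on log2(CPM + 1) over 14113 genes, correlated within these pairs at 0.17, 0.22, 0.15 and 0.41, and each vehicle library correlated best with its own partner. Over the 8241 genes at a mean of 10 CPM or more, vehicle library 3 correlated better with LPS library 2 than with its partner. With these pairs as a block and LPS library 1 left out, edgeR called 21 genes (0.149%), 17 higher (0.12%) and 4 lower (0.0283%) with LPS. All 21 moved the same way in 4 of 4 pairs, as did 1048 of all genes tested upward (7.43%) and 930 downward (6.59%); among genes at 10 CPM or more these shares were 8.91% and 8.86%. In 2 of the 21, Il1b and Tnf, no libraries of the groups overlapped. The count rested on single pairs: it was 1 without the pair 9 and 10 (Slc7a2), 5 without 21 and 22 (Acsl1, Il1b, Mrc1, Ptges and Slc7a2), 10 without 57 and 58, 23 without 41 and 42, and 32 without the libraries numbered 57 to 60. Of the 21 genes, 8 were still called without 57 and 58, 15 without 41 and 42, and 15 without the libraries 57 to 60, where Acsl1, Ctsb, Lcn2, Thbd, Timp1 and Tnf were lost. A robust dispersion prior kept 16 of the 21 and lost Il1b, Il6, Cxcl1, Il1rn and Hmga2. Restricting the test to genes at a mean of 10 CPM or more kept 12 and lost Tnf, Il6, Cxcl1, Il1rn, Lcn2, Igf1, Timp1, Tnfrsf1b and Hmga2. With only the WT libraries, 24 genes were called, 15 of them among the 21. In all of these fits the 21 genes kept their direction. DESeq2 with the same block called 181 genes, among them all 21.

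**Figure D2:**
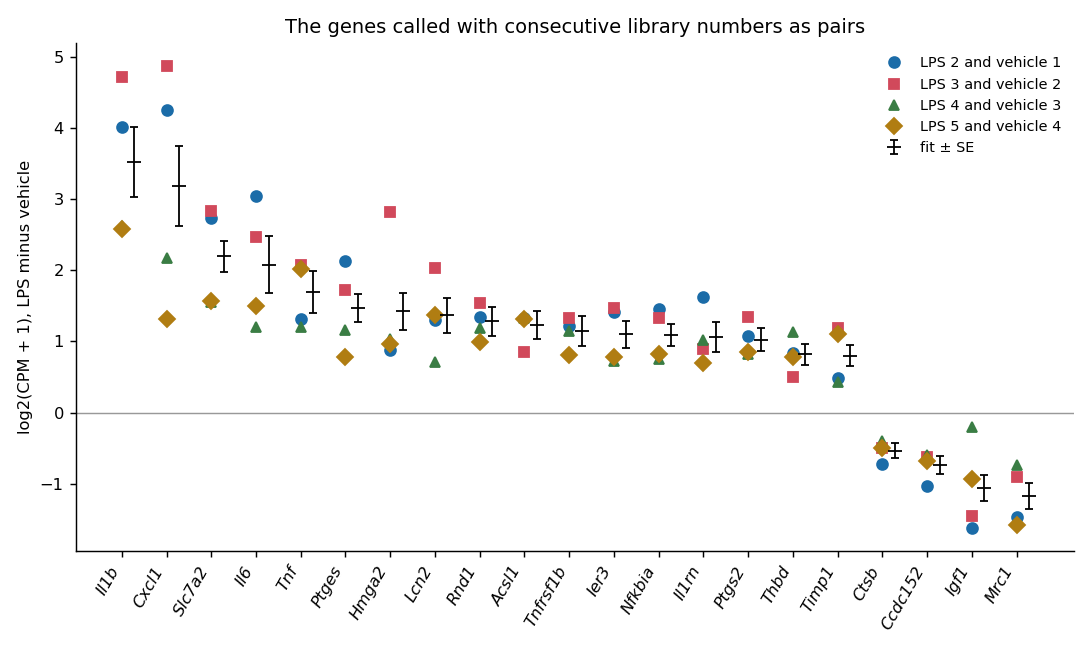
Difference in log2(CPM + 1), LPS minus vehicle (vertical axis), within each of the 4 pairs of libraries for the 21 genes called in the paired fit (horizontal axis), with the fitted log2 change and its SE as black bars. All 4 points lie above 0 for the 17 genes from Il1b to Timp1 and below 0 for Ctsb, Ccdc152, Igf1 and Mrc1.

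Among cytokine transcripts, Il1b, Tnf, Il6 and Il1rn rose with LPS in the paired fit, where 0.12% of all genes tested were called higher. Of 21 tested cytokine genes 18 lay above 0 on the log2 scale in the unpaired fit, where 49.3% of all genes tested did, and the median log2 change was 0.69, against −0.01 over all genes. Il1b, encoding the pyrogenic cytokine interleukin-1β, was at 197, 242, 306, 386 and 429 CPM in LPS libraries 1 to 5, against 14.03, 10.7, 61.6 and 70.96 CPM in vehicle libraries 1 to 4. Every LPS library lay above every vehicle library, and the vehicle libraries fell into a low pair (1 and 2) and a higher pair (3 and 4). Its log2 change was 2.99 ± 0.70 in the unpaired fit (± SE, as for every log2 change below) and 3.53 ± 0.49 within pairs, where it rose (adjusted p = 0.00467). Tnf (tumour necrosis factor) stood at 71.2, 88.2, 72.6, 60.2 and 101 CPM with LPS and at 34.9, 16.4, 25.5 and 24.4 CPM with vehicle, again without overlap, and rose within pairs by 1.69 ± 0.30 on the log2 scale (adjusted p = 0.0221).

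Il6, encoding interleukin-6, was at 77.6, 112, 215, 169 and 574 CPM with LPS and at 12.7, 37.9, 73.1 and 203 CPM with vehicle. The macrophage-poor libraries were the highest of their groups, so that vehicle library 4 lay above 3 of the 5 LPS libraries, and the rise was seen within pairs (2.08 ± 0.40, adjusted p = 0.0413). Il1rn, the secreted antagonist of the interleukin-1 receptor, was at 249, 568, 218, 493 and 80.9 CPM with LPS and at 184, 116, 244 and 49.7 CPM with vehicle, and here the macrophage-poor libraries were the lowest of their groups. It rose by 1.06 ± 0.21 within pairs (adjusted p = 0.0488), just under the threshold. Il1a, encoding interleukin-1α, did not pass (2.97 ± 0.71, adjusted p = 0.14), although its levels of 98.5, 75.2, 75.3, 145 and 135 CPM with LPS and 6.23, 3.10, 30.97 and 44.5 CPM with vehicle did not overlap. Il1b, Tnf and Il1a were the 3 of 21 tested cytokines higher without overlap, against 0.723% of all genes tested. Lif, a cytokine of the interleukin-6 family, had 22.4 to 61.05 CPM with LPS and 3.88 to 48.8 CPM with vehicle, where library 4 alone stood above 7.95 CPM. Tgfb1 and Inhba, of the transforming growth factor β family, had log2 changes of 0.58 ± 0.55 and 0.42 ± 0.41, with overlapping groups. Tnfrsf1b, the second receptor for tumour necrosis factor, rose within pairs (1.14 ± 0.21, adjusted p = 0.0281) and averaged 138 ± 44.7 CPM with LPS and 64.1 ± 23.9 CPM with vehicle (± SD, as for every mean below; n = 5 with LPS and 4 with vehicle).

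**Figure D3:**
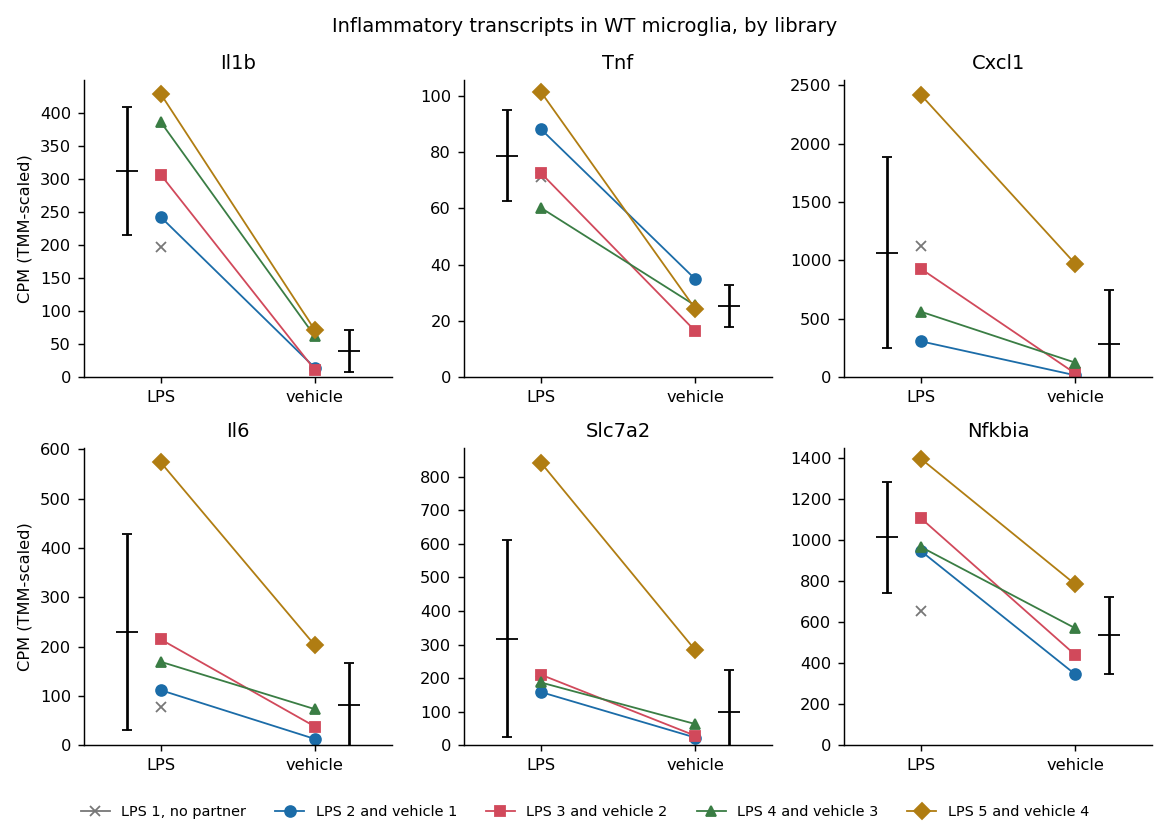
Levels in CPM (vertical axes) of Il1b, Tnf, Cxcl1, Il6, Slc7a2 and Nfkbia in WT LPS (left, n = 5) and WT vehicle (right, n = 4) libraries. Lines join libraries of consecutive number and bars give the mean and SD, cut at 0 where they would run below. Every line falls from LPS on the left to vehicle on the right. LPS library 5 and vehicle library 4 stand highest of their groups for Il1b, Cxcl1, Il6, Slc7a2 and Nfkbia.

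Chemokine transcripts had log2 changes above 0 in 21 of 24 tested members, with a median of 0.97. In 4 of 4 pairs 10 members were higher and 3 lower, against 7.43% and 6.59% of all genes tested. Only Cxcl1 was called, where 0.12% of all genes tested were called higher. Cxcl1, a neutrophil attractant, was at 1127, 306, 927, 559.9 and 2417 CPM with LPS and at 15.03, 30.8, 123 and 970.3 CPM with vehicle. Vehicle library 4 lay above 3 of the 5 LPS libraries, while the other vehicle libraries lay below all of them. Cxcl1 rose within pairs (3.19 ± 0.56, adjusted p = 0.0221), with differences of 4.26, 4.87, 2.17 and 1.32 in log2(CPM + 1) in the 4 pairs. Cxcl2, a second neutrophil attractant, was at 736, 478, 494, 569 and 4087 CPM with LPS and 28.1, 39.3, 167 and 2170 CPM with vehicle, again highest in LPS library 5 and vehicle library 4, and was not called (2.61 ± 0.64 within pairs, adjusted p = 0.168). Ccl2, the main monocyte attractant, was at 709, 831, 1203, 618 and 2038 CPM with LPS and 201, 215, 361 and 1435 CPM with vehicle, higher with LPS in 4 of 4 pairs and short of the threshold (adjusted p = 0.0698).

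Other chemokines varied more between libraries or differed less. Ccl5 was at 1117, 1207, 558, 1078 and 604 CPM with LPS and 208, 15.1, 750.3 and 190.3 CPM with vehicle, where the single libraries spanned a wide range (1.65 ± 0.82 unpaired). Ccl3 had a log2 change of 0.86 ± 0.35 and Ccl4 one of 0.98 ± 0.55, and both were higher with LPS in 4 of 4 pairs. Cxcl10, an interferon-induced attractant of T cells, was at 10.1 to 53.6 CPM with LPS and 0 to 68.1 CPM with vehicle, with a log2 change of 0.38 ± 1.37 that its error exceeded. Ccl20 was at 0 counts in vehicle libraries 1 and 2 and at 6.66 to 24.6 CPM with LPS. Unlike Ccl2, the monocyte attractant Ccl7 was higher with LPS in only 2 of 4 pairs. Its levels were 768, 473, 710.2, 317 and 667 CPM with LPS against 100.0, 187, 325 and 701 CPM with vehicle.

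Of the NF-kB subunits, inhibitors and regulators, 20 of 22 tested had log2 changes above 0 (median 0.76). Only 1 was called, where 0.12% of all genes tested were called higher. Nfkbia, the IkBα inhibitor that NF-kB itself induces, was at 654, 946, 1106, 966 and 1396 CPM with LPS and at 345, 440.0, 570.0 and 784 CPM with vehicle. LPS library 1 was the lowest of its group and lay below vehicle library 4, and the other LPS libraries lay above all vehicle libraries. Nfkbia rose within pairs by 1.09 ± 0.16 (adjusted p = 0.0058). Nfkbiz, a nuclear IkB needed for secondary response genes, averaged 121 ± 35.6 CPM with LPS and 61.02 ± 19.2 CPM with vehicle (0.99 ± 0.33), and Tnfaip3, the ubiquitin-editing inhibitor A20, 64.6 ± 6.88 and 36.1 ± 14.7 CPM (0.84 ± 0.37). Tnip1 and Tnip3, partners of A20, had log2 changes of 0.94 ± 0.36 and 1.37 ± 0.55. The subunit genes differed among themselves: Nfkb2 (p100) had a change of 0.87 ± 0.46 and Rel one of 0.63 ± 0.34, while that of Nfkb1 (p105) was 0.14 ± 0.30. Libraries of the groups did not overlap for Nfkbie, another IkB, at 6.69 to 15.9 CPM with LPS against 0 to 6.38 with vehicle, nor for Chuk, the IKKα kinase, at 43.9 to 56.6 CPM with LPS against 57.1 to 77.5 CPM with vehicle, in the opposite direction. Among all genes tested, 0.723% were higher and 0.581% lower without overlap.

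Effector enzymes and acute-phase products of the LPS response were the list with 5 calls, set against 4 among the cytokines. Of 34 tested, 33 had log2 changes above 0 (median 1.01). With LPS 20 were higher in 4 of 4 pairs, where 7.43% of all genes tested were. The 5 called were Slc7a2, Ptges, Ptgs2, Lcn2 and Ier3, where 0.12% of all genes tested were called higher. Slc7a2, the cationic amino acid transporter that feeds arginine to nitric oxide synthase and arginase, had the smallest p of the paired fit. It was at 191, 158, 210.2, 187 and 842 CPM with LPS and at 22.9, 28.5, 63.2 and 284 CPM with vehicle. LPS library 5 and vehicle library 4 stood far above the others of their groups, vehicle library 4 above 4 of the 5 LPS libraries. Within pairs Slc7a2 rose by 2.20 ± 0.21 (adjusted p = 6.54e-05), and it passed the test in each of the fits that left out 1 pair. In the unpaired fit its change was 1.67 ± 0.76.

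Both inducible enzymes of prostaglandin E2 synthesis rose. Ptgs2, the inducible cyclooxygenase, was at 339.5, 454, 300.0, 439.6 and 703 CPM with LPS and at 215, 118, 248 and 389 CPM with vehicle. Vehicle library 4 lay above 2 of the LPS libraries and the other vehicle libraries below all of them (1.03 ± 0.16 within pairs, adjusted p = 0.00924). Ptges, the microsomal prostaglandin E synthase, was at 105, 174, 224, 190.4 and 324 CPM with LPS and at 38.8, 67.2, 84.2 and 188 CPM with vehicle, rose by 1.47 ± 0.20 (adjusted p = 0.00427) and again had vehicle library 4 as the only vehicle library within the LPS range. Lcn2, the siderophore-binding acute-phase protein lipocalin 2, averaged 139.7 ± 41.5 CPM with LPS and 63.2 ± 22.99 CPM with vehicle and rose by 1.37 ± 0.24 (adjusted p = 0.0232). Ier3, an immediate early regulator of survival, was at 663, 238, 321, 248 and 418 CPM with LPS and at 89.1, 116, 149.8 and 243 CPM with vehicle; only vehicle library 4 reached the LPS range, and it rose by 1.10 ± 0.19 (adjusted p = 0.0179). Acsl1, the acyl-CoA synthetase that loads fatty acids in inflammatory macrophages, averaged 101 ± 59.9 CPM with LPS and 42.7 ± 25.8 CPM with vehicle and rose by 1.23 ± 0.20 (adjusted p = 0.0121).

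Acod1, Sod2, Saa3 and Pim1 did not overlap between the groups but were not called in either fit. Of all genes tested, 0.723% were higher without overlap. Acod1, which makes itaconate, was at 285, 386, 456, 291 and 348 CPM with LPS and at 25.6, 30.97, 106 and 167 CPM with vehicle (2.58 ± 0.57 within pairs, adjusted p = 0.101). Sod2, the mitochondrial superoxide dismutase, was at 3283, 2904, 2771, 2206 and 1932 CPM with LPS and at 738, 659.8, 1779 and 1359 CPM with vehicle. Saa3, an acute-phase serum amyloid A protein, spanned 2155 to 5457 CPM with LPS and 498 to 1769 CPM with vehicle, and the kinase gene Pim1 53.2 to 86.8 and 20.5 to 52.02 CPM. For Acod1 and Sod2, vehicle libraries 3 and 4 lay above vehicle libraries 1 and 2, as they did for Il1b. Nos2, the inducible nitric oxide synthase, was low, at 30.9, 3.49, 23.1, 1.87 and 15.97 CPM with LPS and 7.99, 0, 0 and 4.56 CPM with vehicle, and the groups overlapped. Clec4e (Mincle), a receptor for mycobacterial glycolipid, Fpr1, a receptor for bacterial formyl peptides, and S100a8, a subunit of calprotectin, had log2 changes of 1.18 ± 0.58, 1.14 ± 0.36 and 1.35 ± 0.51.

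The remaining genes called higher were Rnd1, Thbd, Hmga2 and Timp1, of which only Timp1 is in a list (metalloproteinases). Rnd1, a constitutively active small GTPase, was at 142, 71.3, 169.5, 84.03 and 255 CPM with LPS and at 27.6, 57.7, 36.5 and 127 CPM with vehicle and rose by 1.28 ± 0.21 (adjusted p = 0.0121). Thbd, encoding the anticoagulant receptor thrombomodulin, averaged 196 ± 77.5 CPM with LPS and 121 ± 49.5 CPM with vehicle and rose by 0.82 ± 0.15 (adjusted p = 0.026). Timp1, a secreted inhibitor of metalloproteinases, was at 740.5, 412, 999, 694 and 1760 CPM with LPS and at 293, 438, 517 and 821 CPM with vehicle, rose within pairs by 0.80 ± 0.15 (adjusted p = 0.0316) and overlapped between groups. Hmga2, an architectural chromatin protein of fetal and dividing cells, was at 26.7, 107, 106, 147 and 382 CPM with LPS and at 57.7, 14.2, 70.7 and 195 CPM with vehicle and rose by 1.42 ± 0.26 (adjusted p = 0.0281). For Timp1 and Hmga2 the macrophage-poor libraries LPS 5 and vehicle 4 were the highest of their groups. Summed fibroblast and mural markers of those 2 libraries were 5571 and 5051 CPM. The sums were higher in LPS library 3 and vehicle library 2, at 6015 and 6202 CPM. There Hmga2 was at 106 and 14.2 CPM and Timp1 at 999 and 438 CPM. Whether other cells contributed to these transcripts was not tested.

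**Figure D4:**
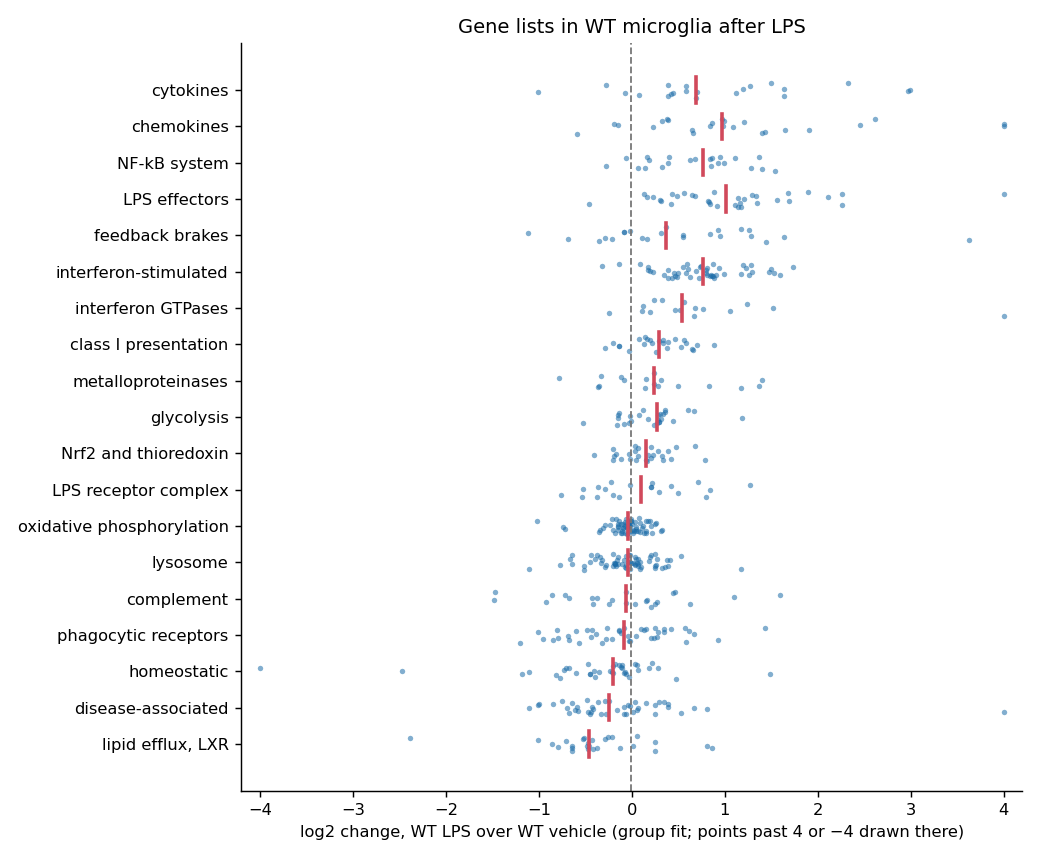
Log2 change of each tested member (blue points) of 19 gene lists (rows) between WT LPS and WT vehicle libraries in the unpaired fit (horizontal axis), with the list median in red and the median of all 14113 genes as a dashed line. The medians run from 1.01 for LPS effectors to −0.46 for lipid efflux and LXR targets, and 0 genes passed the test in this fit.

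Feedback brakes on LPS signalling were mixed. Of 23 tested, 15 lay above 0 and the median was 0.37, and Nfkbia was the only one called. Irak3, a kinase-dead brake on Toll-like receptors, was at 194, 180.3, 118, 74.3 and 92.0 CPM with LPS and at 56.1, 31.1, 65.3 and 63.9 CPM with vehicle, without overlap (1.28 ± 0.37 unpaired). It was the only one of the 23 higher without overlap, where 0.723% of all genes tested were. Socs3, an inhibitor of cytokine receptor signalling, was at 71.97, 85.6, 78.5, 103 and 59.5 CPM with LPS and at 13.8, 27.9, 64.5 and 35.3 CPM with vehicle, with vehicle library 3 inside the LPS range. The mRNA-destabilising brakes Zfp36 (tristetraprolin) and Zc3h12a (regnase-1) had changes of 0.32 ± 0.43 and 0.11 ± 0.53, and their groups overlapped. Of the LPS receptor complex and adaptors, 10 of 20 tested lay above 0 (median 0.09, with a change of sign when LPS library 1 or 2 was left out) and 0 were called. Cd14, the LPS co-receptor, was at 243, 181, 172, 150.0 and 79.5 CPM with LPS and at 62.6, 54.1, 101 and 55.7 CPM with vehicle, higher in 4 of 4 pairs and short of the threshold within pairs (1.07 ± 0.22, adjusted p = 0.0564). The signalling receptor Tlr4 (−0.37 ± 0.38), its partner Ly96 (−0.01 ± 0.39) and the adaptor Myd88 (0.22 ± 0.42) had changes smaller than their errors.

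Interferon-stimulated antiviral genes lay above 0 in 46 of 48 tested, with a median of 0.77, but 0 passed either fit. Of them, 21 were higher with LPS in 4 of 4 pairs, where 7.43% of all genes tested were. Irf7, the transcription factor that amplifies the interferon response, was at 66.3, 68.7, 27.9, 32.96 and 34.7 CPM with LPS and at 11.98, 5.87, 33.9 and 11.96 CPM with vehicle, where library 3 lay within the LPS range. Isg15, a ubiquitin-like modifier, was at 359, 577, 331, 625 and 655 CPM with LPS and at 42.2, 99.6, 306 and 687 CPM with vehicle, and here vehicle library 4 was the highest of all 9. Ifit1 and Ifit3, which bind foreign RNA, had changes of 1.17 ± 0.71 and 0.72 ± 0.81, and Rsad2 (viperin) of 0.85 ± 0.73. Zbp1, a sensor of Z-form nucleic acids, did not overlap, with 33.7, 38.1, 29.03, 39.8 and 33.2 CPM against 9.54, 2.27, 16.8 and 17.6 CPM, nor did Tor3a, with 79.3 to 145 CPM with LPS against 31.1 to 67.8 CPM with vehicle. These were 2 of 48, where 0.723% of all genes tested were higher without overlap. Among interferon-inducible GTPases, which attack vacuoles of intracellular pathogens, 15 of 16 tested lay above 0 (median 0.54). Gbp2 was at 110.0, 154, 176, 179 and 207 CPM with LPS and 4.56, 30.6, 83.5 and 112 CPM with vehicle, and Irgm2 was the only one whose groups did not overlap, at 34.9 to 54.04 against 22.5 to 30.9 CPM. Vehicle libraries 3 and 4 held more Isg15, Ifit1, Ifit3, Rsad2 and Gbp2 than vehicle libraries 1 and 2.

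Class I antigen presentation genes lay above 0 in 20 of 25 tested with a median of 0.29, and 0 were called. H2-K1 was at 562 to 1745 CPM with LPS and 423 to 1006 CPM with vehicle, and B2m at 1303 to 3229 and 1362 to 2764 CPM. Class I genes are near-identical to each other, so counts may be split between them. Class II transcripts were low: H2-Ab1 and Cd74 were at 0 to 11.5 and 0 to 9.44 CPM with LPS and at 0 to 5.95 and 0 to 6.95 CPM with vehicle. The costimulatory ligand Cd86 had a change of −0.34 ± 0.50, and the inhibitory ligand Cd274 (PD-L1) one of 0.82 ± 0.58.

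The 4 transcripts called lower were Mrc1, Igf1, Ctsb and Ccdc152. With only the WT libraries in the paired fit Mrc1 was the only one of them still called, and without the pair 9 and 10 or the pair 57 and 58 there were 0 lower calls. Mrc1, the mannose receptor CD206 of border-associated and alternatively activated macrophages, was at 347, 268, 193, 434 and 120.3 CPM with LPS and at 745, 364, 724 and 363 CPM with vehicle. LPS library 4 alone lay above the lowest vehicle libraries, and Mrc1 fell within pairs (−1.18 ± 0.18, adjusted p = 0.00924). Igf1, insulin-like growth factor 1, was at 319, 321, 236, 596 and 72.9 CPM with LPS and at 992, 651, 686 and 140.1 CPM with vehicle and fell within pairs (−1.06 ± 0.19, adjusted p = 0.0221). The macrophage-poor libraries were the lowest of their groups, and within pair 41 and 42 the difference was −0.20 in log2(CPM + 1). Ctsb, the lysosomal protease cathepsin B, was at 3211, 3005, 2377, 2673 and 1443 CPM with LPS and at 4966, 3364, 3541 and 2043 CPM with vehicle; its fall lay between −0.72 and −0.41 in log2(CPM + 1) over the pairs (−0.53 ± 0.10 fitted, adjusted p = 0.0413). Ccdc152 was at 240.0, 423, 367, 339 and 222 CPM with LPS and at 869.8, 567, 513 and 358 CPM with vehicle and fell within pairs (−0.74 ± 0.13, adjusted p = 0.0214). It overlaps Selenop, the selenium carrier, on the RefSeq annotation, so reads could be assigned to either. Selenop itself was at 42.6 to 140.1 CPM with LPS and 65.5 to 202 CPM with vehicle (−0.38 ± 0.23 within pairs).

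**Figure D5:**
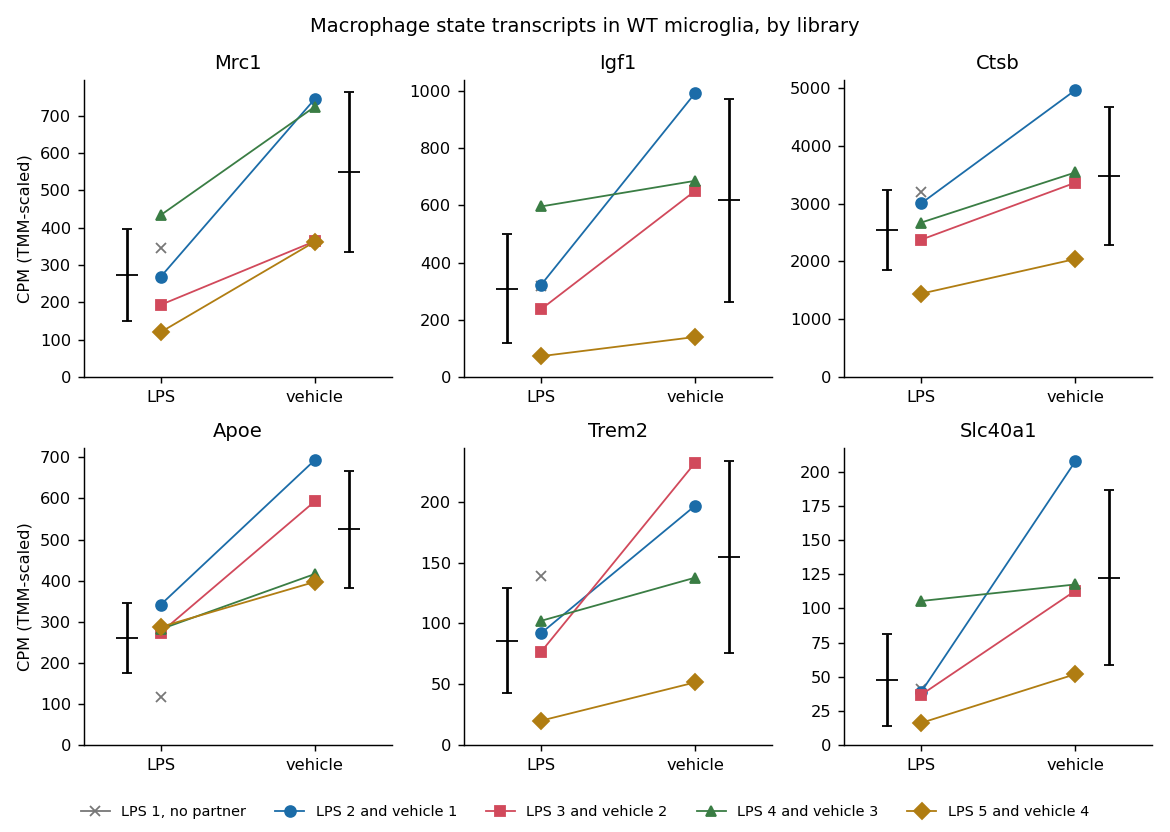
Levels in CPM (vertical axes) of Mrc1, Igf1, Ctsb, Apoe, Trem2 and Slc40a1 in WT LPS (left, n = 5) and WT vehicle (right, n = 4) libraries, with lines between libraries of consecutive number and the mean and SD of each group. Each line is higher at vehicle than at LPS, and Apoe is the only one of the 6 whose groups do not overlap.

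Disease-associated microglia genes, a set known from plaque-bearing brains, had log2 changes below 0 in 28 of 43 tested, with a median of −0.25. With LPS 19 were lower and 3 higher in 4 of 4 pairs, against 6.59% and 7.43% of all genes tested. The called members are Igf1 and Ctsb, where 0.0283% of all genes tested were called lower. Apoe, the main lipid carrier of the brain, was at 116, 342, 274, 282 and 288 CPM with LPS and at 694, 593, 416 and 397 CPM with vehicle. Its groups did not overlap, which held in the lower direction for 0.581% of all genes tested. Apoe did not pass either fit (−0.79 ± 0.17 within pairs, adjusted p = 0.0862). Trem2, the lipid-sensing receptor, was at 139, 91.9, 76.5, 102 and 20.1 CPM with LPS and at 197, 232, 138 and 51.6 CPM with vehicle, lower in 4 of 4 pairs (−1.12 ± 0.23, adjusted p = 0.0713). Lgals3, Lpl and Cd9 were also lower in 4 of 4 pairs, with changes within pairs of −0.76 ± 0.16, −0.62 ± 0.15 and −0.60 ± 0.22. Spp1, encoding osteopontin, had 1403 to 2170 CPM with LPS and 2028 to 2236 CPM with vehicle and was lower in 2 of 4 pairs. Hif1a, a hypoxia factor that the same list holds, was higher with LPS in 4 of 4 pairs, at 144 to 279 CPM with LPS and 64.1 to 166 CPM with vehicle.

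Homeostatic microglia genes lay below 0 in 29 of 37 tested (median −0.20), and 0 were called. With LPS 10 were lower and 0 higher in 4 of 4 pairs, against 6.59% and 7.43% of all genes tested. The macrophage and microglia identity markers lay below 0 in 12 of 16 tested (median −0.11). Of them, 5 were lower and 0 higher in 4 of 4 pairs. That median changed sign when vehicle library 1 or LPS library 5 was left out. Whether a lower share of macrophage RNA contributed to the lower transcripts was not tested. Cx3cr1, the fractalkine receptor, was at 38.1, 68.7, 15.6, 74.1 and 12.6 CPM with LPS and at 153, 101, 112 and 12.9 CPM with vehicle. Its vehicle library 4, macrophage-poor, was close to the lowest LPS library. Csf1r had a change of −0.20 ± 0.43, and Gpr34 was at 0.266 to 7.89 CPM with LPS and at 33.9, 23.5, 31.97 and 0 CPM with vehicle.

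Lipid efflux, storage and LXR target genes lay below 0 in 21 of 27 tested with a median of −0.46, and 0 were called. Within this list the oxysterol enzyme Ch25h stood apart at 85.5 to 262 CPM with LPS and 28.7 to 114 CPM with vehicle (0.81 ± 0.47), while the efflux pumps Abca1 and Abcg1 had changes of −0.29 ± 0.27 and −0.51 ± 0.44 and the lysosomal lipase Lipa one of −0.65 ± 0.43. Lysosomal genes had a median of −0.04, which changed sign when vehicle library 1 or LPS library 3 or 5 was left out, and 16 of 65 were lower and 5 higher in 4 of 4 pairs, against 6.59% and 7.43% of all genes tested. Ctsd was lower in 4 of 4 pairs (−0.47 ± 0.13) and Ctsl in 3 (−0.12 ± 0.11). Phagocytic, scavenger and Fc receptors had a median of −0.08 over 43 tested genes with Mrc1 as the only call. Gas6, the ligand that bridges dying cells to Axl and Mertk, was at 179.5, 197, 175, 264 and 78.3 CPM with LPS and at 500.5, 513, 266 and 105 CPM with vehicle, and Mertk was lower in 4 of 4 pairs (−0.76 ± 0.19). Complement genes had a median of −0.06 that changed sign in 6 of 14 alternatives. C3, the central component, did not overlap, at 38.1, 58.2, 35.2, 47.1 and 36.5 CPM with LPS and 15.7, 18.6, 26.8 and 19.1 CPM with vehicle. Cd46, a complement regulator, did not overlap in the other direction, and only just, with at most 7.989 CPM with LPS against at least 7.991 CPM with vehicle, while C1qa, C1qb and C1qc had changes of −0.21 ± 0.46, −0.24 ± 0.60 and −0.37 ± 0.52. Across all genes tested, 0.723% were higher and 0.581% lower without overlap.

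Among the iron genes Lcn2 was the only call, and among glycolysis, oxidative phosphorylation, Nrf2 and cholesterol synthesis genes 0 were called. Slc40a1, the iron exporter ferroportin, was at 41.2, 38.8, 36.8, 105 and 16.3 CPM with LPS and at 208, 113, 118 and 51.9 CPM with vehicle and missed the threshold within pairs (−1.48 ± 0.29, adjusted p = 0.0532). Slc11a2, an importer of ferrous iron, did not overlap, with 126 to 209 CPM with LPS against 73.1 to 121 CPM with vehicle. A share of 0.723% of all genes tested was higher without overlap. Fth1, the ferritin heavy chain, had a change of 0.30 ± 0.35. Glycolysis genes lay above 0 in 18 of 27 tested (median 0.27), and Pfkl, the liver-type phosphofructokinase, was the only one without overlap, at 15.4 to 37.2 CPM with LPS against 5.14 to 14.6 CPM with vehicle. Nuclear-encoded oxidative phosphorylation genes had a median of −0.04 over 70 and mitochondrially encoded transcripts one of 0.10 over 13, and both medians changed sign with a library left out. Nrf2, glutathione and thioredoxin genes had a median of 0.15 over 27, with Slc7a11, the cystine importer, higher in 4 of 4 pairs (1.04 ± 0.22, adjusted p = 0.083). Cholesterol synthesis genes had a median of −0.07 over 25, above 0 when vehicle library 1 was left out.

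Metalloproteinases and plasminogen activators had 3 of 17 members higher without overlap between groups, where 0.723% of all genes tested were, Mmp3 (stromelysin 1), Mmp10 (stromelysin 2) and Mmp14 (a membrane-bound collagenase). Mmp3 was at 994, 372, 738, 293 and 548 CPM with LPS and at 213, 193, 253 and 234 CPM with vehicle, and Mmp14 at 263, 296, 303, 305 and 305 and 139.9, 243, 211 and 238 CPM. The Mmp10 groups touched at 33.84 CPM in LPS library 5 and 33.79 CPM in vehicle library 4. The macrophage elastase Mmp12 was at 214, 387, 106, 696 and 159 CPM with LPS and 554, 413, 878 and 303 CPM with vehicle, lower in 4 of 4 pairs and not called (−0.93 ± 0.20, adjusted p = 0.0772).

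Heat shock and unfolded protein genes had a median of 0.03 over 15, immediate early genes −0.02 over 20 and cell division genes −0.11 over 30, all with 0 calls and all with a change of sign in at least 1 alternative. Myeloid Alzheimer risk genes had a median of −0.09 over 27 tested, above 0 when LPS library 5 was left out, with Ctsb as the only call. Border-associated macrophage markers had a median of −0.02 over 11, with Mrc1 called, monocyte and neutrophil markers 0.59 over 6, and endothelial markers −0.44 over 13. Flt1 was at 4.17 to 29.7 CPM with LPS and 20.2 to 49.1 CPM with vehicle, and Pecam1, which macrophages also carry, at 226 to 575 and 313 to 774 CPM. Pericyte, smooth muscle and fibroblast markers had a median of −0.23 over 20, astrocyte markers 0.19 over 11, oligodendrocyte markers −0.03 over 8, neuron markers 0.01 over 7 and lymphocyte markers −2.88 over 4, the last from counts near the floor. Of these marker lists, the monocyte and neutrophil, endothelial and lymphocyte medians kept their sign in every setting that gave a value, and the others did not.

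The ranking by unadjusted p in the unpaired fit began with Tnf, Il1b and Apoe and also held genes outside the lists. In this fit 0 genes passed after adjustment. Because the ranked genes were picked by their p in this comparison, their lack of overlap is no further support. Over all genes tested, 0.723% were higher and 0.581% lower without overlap. Pafah2, a phospholipase that degrades platelet-activating factor, was at 29.5, 29.6, 17.9, 18.7 and 21.8 CPM with LPS and at 7.90, 4.95, 11.02 and 8.80 CPM with vehicle, without overlap. Cemip2, a cell-surface hyaluronidase, was at 46.5 to 77.9 CPM with LPS against 16.3 to 39.8 CPM, and Pde4b, the cAMP phosphodiesterase of macrophages, at 57.4 to 105 against 23.1 to 56.1 CPM. Nlrp3, the inflammasome sensor, was at 158, 104, 72.5, 71.2 and 67.3 CPM with LPS and at 37.7, 31.9, 68.7 and 35.02 CPM with vehicle, and vehicle library 3 reached the LPS range. Slc20a1, a phosphate transporter, did not overlap, at 109.9 to 217 CPM with LPS against 74.2 to 92.5 CPM, whereas Gpd2, the mitochondrial glycerol phosphate dehydrogenase, overlapped (60.4 to 97.6 against 39.1 to 60.9 CPM). Trabd and Sp2 were low, at 8.45 to 26.5 and 4.41 to 19.8 CPM with LPS and 1.73 to 5.47 and 0.185 to 4.43 CPM with vehicle.

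On the lower side of the same ranking, Nrp1, a semaphorin and VEGF co-receptor, was at 47.1, 55.2, 73.9, 98.6 and 45.9 CPM with LPS and at 181, 189.5, 95.05 and 58.1 CPM with vehicle. Reps2, an endocytic adaptor, was at 2.11, 1.97, 1.97, 3.10 and 3.42 CPM with LPS and at 47.5, 16.9, 16.6 and 4.93 CPM with vehicle, without overlap. Mrps31, a subunit of the mitochondrial ribosome, Cnpy2, Vps26c and Scrn3 did not overlap either, at 7.38 to 22.1, 51.04 to 73.9, 24.04 to 41.6 and 8.08 to 14.8 CPM with LPS against 25.5 to 44.4, 81.5 to 116, 47.7 to 68.4 and 20.2 to 32.8 CPM with vehicle. Srp54c was at 46.02 to 105 CPM with LPS against 121 to 232 CPM with vehicle, and as a near-identical copy of Srp54a and Srp54b it is uncertain. The other genes of this ranking were Prex2, Cdc42ep3, Lrp4, Galnt17, R3hdm1 and Mfap1b, with log2 changes from −1.08 to −0.69.

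The WT response was set against that of the APP libraries, which are different libraries under the same treatments. The difference between the genotypes was tested only without the pairs, where edgeR also called 0 genes for LPS in WT. In this test 0 of 14113 genes (0.0%) passed in edgeR, 385 had an unadjusted p under 0.05, and DESeq2 called 70. The 385 genes are fewer than the 1 in 20 that this cut-off gives when no gene differs. All 21 genes called in WT had APP changes of the same sign, although that of Thbd was 0.00 ± 0.41. Over all genes tested the signs matched in 57.7%. In APP the log2 change of Il1b was 3.11 ± 0.64, that of Cxcl1 2.44 ± 0.95, that of Slc7a2 1.15 ± 0.69 and that of Mrc1 −1.29 ± 0.49, all in the unpaired fit. The smallest unadjusted p of the difference among the 21 was 0.263. For Pafah2 and Srp54c the difference between genotypes had unadjusted p-values of 0.00688 and 0.00192 and adjusted p-values of 1, and their APP changes were −0.03 ± 0.35 and 0.41 ± 0.31. Cemip2, Trabd and Slc20a1, from the same unpaired ranking, had unadjusted p-values of 0.0164, 0.025 and 0.0125 for this difference. Their APP changes were 0.09 ± 0.29, 0.38 ± 0.53 and −0.12 ± 0.23, while Pde4b of that ranking had one of 1.04 ± 0.30.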

How the data were processed

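Microglial total RNA was sequenced as 3′ tag libraries with unique molecular identifiers and ERCC spike-ins, per the labels' protocols. The deposited tables hold estimated counts per gene, already whole numbers and taken as they stand. The submitters' processing notes name FastQC, Trimmomatic, kallisto and DESeq2 without versions, while the sources used here do not state the build, how identifiers were used or the strand setting.

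Counts were scaled with TMM, and 14113 of 16941 genes passed edgeR's filterByExpr. Tests were edgeR's quasi-likelihood test with Benjamini-Hochberg adjustment, called at an adjusted p under 0.05, over 19 libraries with 1 coefficient per group, or over 18 libraries with consecutive library numbers as a block. Versions were R 4.3.3, edgeR 4.0.16, limma 3.58.1 and DESeq2 1.42.0. The pairing rests on the numbers in the library names and on the correlation of deviations: all 4 WT pairs exceeded 0.1 on log2(CPM + 1), while with a prior count of 2 the pair 41 and 42 was at 0.0959. Both fits are therefore given. The unpaired and paired edgeR fits, but not the other steps, were tested on simulated counts in which 200 of 14113 genes changed. At a simulated dispersion of 0.05 both recovered all 200. At 0.3 the unpaired fit recovered 138 and the paired fit 108. The common dispersions fitted to the data were higher, at 1.05 and 0.75. Alternatives were DESeq2, other scaling and filters, a robust prior, limma voom, other blocks, a covariate for a Y-linked transcript, and libraries left out.

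The genes and lists were chosen with earlier results of these data known. Named genes are the 15 with the smallest unadjusted p in each direction of the unpaired fit, up to 12 called in each direction of the paired fit, both at a mean of 10 CPM or more, list members marked as key or among the 4 others with the smallest p, and genes that a count of 5 or fewer singles out. Tnfrsf1b, Hmga2, Selenop and Lrrc17 were chosen after their values were seen.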

Additional observations from a re-analysis of the deposited data

Results flagged for a closer look

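A library stood apart from the others of its WT group, by Dixon's test at the 95% level, in 24 of 286 tests of the named genes and marker sums (8.39%). Chance flags about 1 in 20 such groups when values are normally distributed, which was not checked for these CPM values. The genes were chosen with earlier results known, so the 2 rates are not strictly comparable. The 5 LPS and 4 vehicle libraries were tested separately. LPS library 5 was highest of its group for Acsl1 (203.2 CPM), Slc7a2 (842.1 CPM), Il6 (573.8 CPM) and Cxcl2 (4087 CPM), and lowest for Ctsl (1658 CPM). Its partner, vehicle library 4, was highest of its group for Slc7a2 (283.8 CPM), Cxcl1 (970.3 CPM), Lif (48.75 CPM), Cxcl2 (2170 CPM) and Ccl2 (1435 CPM), and lowest for the summed macrophage and microglia markers (8894 CPM). Both libraries have few macrophage transcripts, and the part this plays in their chemokine and Slc7a2 levels was not tested. Among the other LPS libraries, library 1 was lowest for Galnt17 (8.295 CPM) and Mmp14 (262.9 CPM) and highest for Tmem119 (8.966 CPM), library 2 was highest for Mmp10 (126.5 CPM), and library 4 was lowest for Nfkb2 (15.06 CPM) and highest for Slc40a1 (105.4 CPM). Vehicle library 1 was highest for Chuk (77.5 CPM), and vehicle library 2 was highest for Srp54c (232.5 CPM) and lowest for Inhba (92.87 CPM). Vehicle library 3 was highest for Nlrp3 (68.7 CPM), H2-Ab1 (5.946 CPM), Cd74 (6.952 CPM) and Abca1 (357 CPM).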

How the results depend on the processing

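In the unpaired comparison edgeR called 0 genes, and 0 under every alternative run except 3: DESeq2 called 72, a block of consecutive library numbers 21, and those numbers as a random effect in limma voom 3. Leaving out each WT library gave 0 calls each time, with 327 to 605 genes at an unadjusted p under 0.05, each time fewer than 1 in 20. Groups share replicate numbers in their titles, and a replicate block of the title numbers called 0. Title-numbered libraries had correlations of −0.136 to 0.079 over all genes tested. Over genes at 10 CPM or more the correlations were −0.238 to 0.119, where 1 of the 4 exceeded 0.1. Whether the title numbers mark anything shared was not tested. In the paired comparison, 21 genes became 181 with DESeq2, 67 with no filter, 12 at a mean of 10 CPM or more, 72 with limma voom weights, 20 with DESeq2 size factors, 19 with a robust prior, 24 with only the WT libraries, 32 without the libraries numbered 57 to 60 and 0 with no block. Leaving out each WT pair gave 1 to 23 calls. The cause of these differences was not tested. For the difference between genotypes DESeq2 called 70 and every other setting 0. Depth limits genes near the floor of 3 counts, and the 4 pairs limit the precision of the paired fit. For lymphocyte markers no gene reached a mean of 10 CPM, so that setting gave no median.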
